A study of Rattus norvegicus with 9 samples.

Results

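The calcitonin peptide family and its receptors were followed in primary cultures of rat hippocampal neurons incubated with PCT or NPCT. The set held the 10 genes of the expression table whose symbol is Calca, Calcb, Adm, Adm2, Iapp, Calcr, Calcrl, Ramp1, Ramp2 or Ramp3, of 34092 genes in all, and each symbol was found. They comprised 5 peptide genes, 2 receptor genes and 3 genes of receptor activity modifying proteins (RAMPs). The cells came from hippocampi of wild-type rat fetuses of embryonic day 17. At 7 days in vitro the neurons were incubated for 24 h with vehicle (Control), with 1 nM human NPCT or with 1 nM human PCT, and each group had 3 libraries. PCT is procalcitonin, the precursor of calcitonin, and NPCT is its amino-terminal part. Both were added as human peptides. An added peptide brings no RNA into the libraries.

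The known receptors of calcitonin, calcitonin gene-related peptide (CGRP), adrenomedullin and amylin are built on seven-helix receptors of class B1, the calcitonin receptor (Calcr) and the calcitonin receptor-like receptor (Calcrl). The study did not identify the receptor of NPCT. The RAMPs are single-pass membrane proteins that travel to the cell surface with these receptors and set which peptide they bind. Calcrl needs a RAMP: with RAMP1 it is the receptor of CGRP, and with RAMP2 or RAMP3 it is a receptor of adrenomedullin. Calcr alone binds calcitonin, and together with a RAMP it binds amylin. In the brain, CGRP is a neuropeptide of sensory and other neurons, whereas the pair of Calcrl and RAMP2 is best known from endothelium. Both receptors couple mainly to Gs and raise cAMP.

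The cultures contained the receptor gene Calcrl and the RAMP gene Ramp2 at a few FPKM (fragments relative to gene length and to library depth, so that levels can be compared between genes), whereas Calcr was close to the limit of counting and the amylin gene Iapp was not counted in any library. Only 1 difference passed the test: Ramp2 was 1.99-fold lower with NPCT than with PCT. It was 1 of 6 members tested, and 5.76% of all tested genes passed in this comparison. No member passed the test in either comparison with Control, where 0.219% (NPCT) and 2.31% (PCT) of all tested genes passed. Over the 9 libraries the levels fell in the order Ramp2 (mean 5.97 FPKM), Calcrl (4.71 FPKM), Adm (2.30 FPKM), Calca (1.07 FPKM), Ramp1 (0.629 FPKM), Ramp3 (0.576 FPKM), Adm2 (0.445 FPKM), Calcr (0.123 FPKM), Calcb (0.0428 FPKM) and Iapp (0). Among the 22250 protein coding genes of the table, 59.0% had a lower mean than Ramp2 and 55.9% a lower mean than Calcrl, so that even the leading members stood near the middle of the range.

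**Figure D1:**
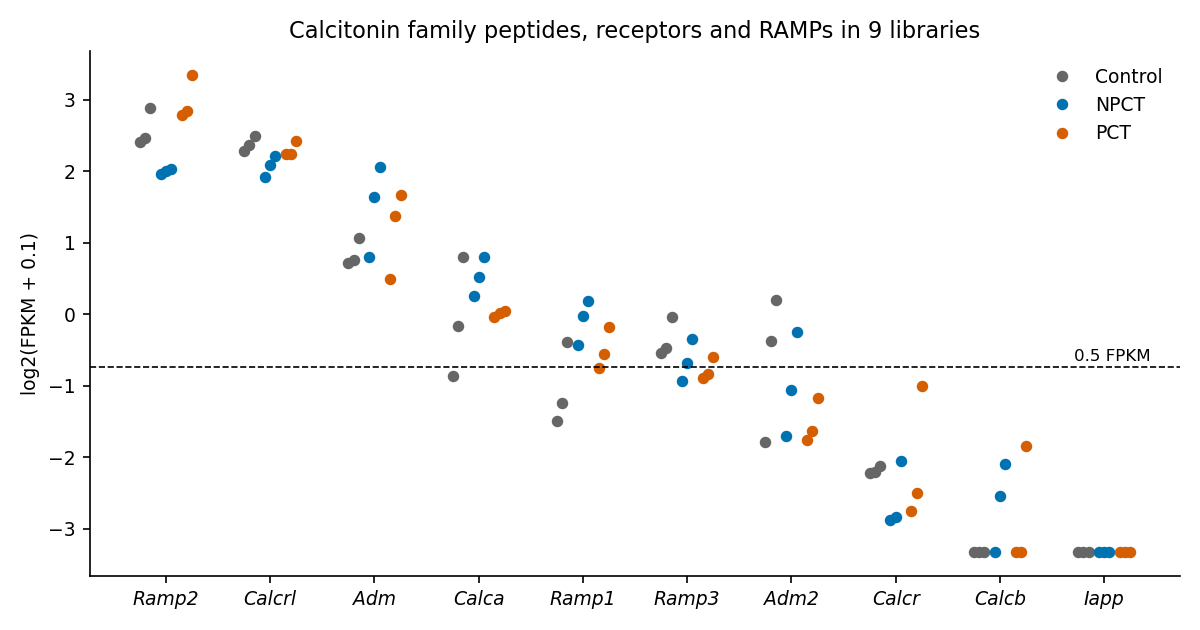
Level of the 10 genes in every library, as log2(FPKM + 0.1) on the vertical axis, with 1 point per library, coloured by group and ordered by value within a group. The dashed line marks 0.5 FPKM, the mean that a gene had to reach to be tested. Ramp2 and Calcrl lie highest, the 3 NPCT points of Ramp2 lie below all its other points, and Iapp lies at the bottom, listed at 0 in all 9 libraries.

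Neighbours in this order were not separated by their spread over the libraries, since the ranges of every neighbouring pair overlapped. Ramp2 exceeded Calcrl in 7 of 9 libraries, Calcrl exceeded Adm in 8 and Adm exceeded Calca in 8. Calca was above Ramp1 in all 9 libraries, although their ranges overlapped. Ramp1 exceeded Ramp3 in only 5 libraries, so their order is not settled.

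Depth decided what could be said of the low members. A library held between 13573056 and 17211642 fragments on genes, recovered from the FPKM values, and 6 members reached the mean of 0.5 FPKM set for testing. Within groups, libraries differed beyond counting noise, with a chi-square per degree of freedom of 4.32 to 6.65 for most pairs, but 11.3 and 11.4 for NPCT replicate 3 and 23.1 and 20.2 for PCT replicate 3 against the others of their group. The nearest on either side of this limit were Ramp3 with 0.576 FPKM and Adm2 with 0.445 FPKM. The 4 others (Adm2, Calcr, Calcb and Iapp) are described by their levels and fragments. Intervals of fragment counts given here are exact Poisson intervals of 95% and cover counting error only.

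The cultures are labelled as primary hippocampal neurons. All 13 neuronal markers were above 0.5 FPKM, led by Tubb3 and Map2 with means of 687 and 172 FPKM. Glial markers were present as well, with Gfap and Slc1a3 of astrocytes at 846 and 569 FPKM, Olig1 and Cnp of the oligodendrocyte lineage at 245 and 75.5 FPKM, and C1qc and C1qb of microglia at 9.68 and 9.54 FPKM. The microglial means rested on NPCT replicate 3, with 43.1 and 37.1 FPKM, and were 5.50 and 6.10 FPKM without it. In such bulk RNA fewer cells of a type and less RNA per cell cannot be told apart.

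The first question was which peptide genes of the family the cultures express. Calca, which encodes calcitonin, procalcitonin and, by alternative splicing, CGRP, was counted in every library. It was listed at 0.449, 1.64 and 0.793 FPKM in the 3 Control libraries, at 1.64, 1.33 and 1.09 FPKM with NPCT and at 0.929, 0.916 and 0.873 FPKM with PCT. The Control libraries spread over the whole range, and the NPCT libraries lay above the PCT libraries without overlap. These levels rested on 9 to 32 fragments per library and on 188 in all (95% interval 162 to 217). The log2 fold change was 0.60 for NPCT against Control (SE 0.40, limma with Benjamini-Hochberg adjustment, adjusted p = 0.345), 0.08 for PCT against Control (adjusted p = 0.944) and 0.52 for NPCT against PCT (adjusted p = 0.401). A value per gene does not tell the transcript of calcitonin and procalcitonin from that of CGRP. Calca lies on chromosome 1 (ENSRNOG00000011130, chr1:184184020-184188911, minus strand, build Rnor_6.0 per the processing notes of the submitters).

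Calcb, the gene of the second CGRP and a close relative of Calca, lies 82678 bases away (ENSRNOG00000011074, chr1:184271590-184276475, plus strand). It was listed at 0 in all 3 Control libraries, at 0, 0.0725 and 0.135 FPKM with NPCT and at 0, 0 and 0.178 FPKM with PCT. That is a total of 6 fragments in 9 libraries, with none in Control. Since exons of the pair resemble each other, how fragments were divided between them is uncertain, and no fold change is given.

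Adm encodes adrenomedullin, a peptide that widens blood vessels, and was the peptide gene with the highest level (ENSRNOG00000027030, chr1:175445088-175447259, plus strand). Its level was 1.60, 1.55 and 1.99 FPKM in the Control libraries, 1.65, 3.01 and 4.06 FPKM with NPCT and 1.31, 2.48 and 3.08 FPKM with PCT. In both treated groups replicates 2 and 3 lay above every Control library, whereas replicate 1 did not, so that the groups overlapped. The log2 fold change was 0.65 for NPCT against Control (95% interval -0.18 to 1.49, limma with Benjamini-Hochberg adjustment, adjusted p = 0.269) and 0.33 for PCT against Control (-0.51 to 1.16, adjusted p = 0.698). NPCT and PCT differed by 0.32 (-0.51 to 1.16, adjusted p = 0.581). Over the 9 libraries, the genes whose log2 level followed that of Adm most closely were Kyat1 (Pearson r = 0.956), Kctd2 (r = 0.945) and Vrk3 (r = 0.944), given as a description.

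Adm2, the gene of intermedin (adrenomedullin 2), was listed at 0.190, 1.05 and 0.673 FPKM in the Control libraries, at 0.209, 0.746 and 0.378 FPKM with NPCT and at 0.197, 0.342 and 0.222 FPKM with PCT (ENSRNOG00000029830, chr7:130296897-130298644, plus strand). The 3 groups overlapped, and in each of them replicate 1 was lowest and replicate 2 highest. The fragments numbered 29 in Control (95% interval 19.4 to 41.6), 20 with NPCT (12.2 to 30.9) and 12 with PCT (6.20 to 21.0).

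Iapp, which encodes amylin, the peptide secreted with insulin by pancreatic beta cells, had no fragment in any of the 9 libraries (ENSRNOG00000012417, chr4:176510696-176516083, plus strand). At its length of 466 bases a count of 0, taken here to allow up to 3 fragments (the exact Poisson bound is 3.69), sets an upper limit between 0.367 and 0.460 FPKM per library.

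The second question was which receptor genes for these peptides the cultures express. Calcr, the calcitonin receptor, was listed at 0.129, 0.114 and 0.117 FPKM in the Control libraries, at 0.142, 0.0395 and 0.0367 FPKM with NPCT and at 0.0764, 0.399 and 0.0485 FPKM with PCT (ENSRNOG00000010053, chr4:28627442-28702559, minus strand). The highest level came from PCT replicate 2, with 20 fragments. Each of the other 8 libraries held between 2 and 7 fragments, and the groups overlapped. The total was 57 fragments (95% interval 43.2 to 73.9) over a gene model of 3528 bases.

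Calcrl was much higher (ENSRNOG00000054695, chr3:71747956-71845232, minus strand). Its level was 5.09, 5.55 and 4.76 FPKM in the Control libraries, 4.17, 4.54 and 3.69 FPKM with NPCT and 5.26, 4.65 and 4.64 FPKM with PCT. All 3 NPCT libraries lay below all Control and all PCT libraries, whereas Control and PCT overlapped. Since 268 to 389 fragments per library stood behind these values, Calcrl was the most deeply counted member. Its log2 fold change was -0.31 for NPCT against Control (95% interval -0.57 to -0.05, limma with Benjamini-Hochberg adjustment, adjusted p = 0.118), -0.08 for PCT against Control (-0.34 to 0.18, adjusted p = 0.776) and -0.23 for NPCT against PCT (-0.49 to 0.03, adjusted p = 0.198). None of these passed the test.

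Among the 14 class B1 receptor genes of the table, which share the fold and the peptide ligands of this receptor class, Calcrl was second and Calcr was 11th by mean FPKM. The first was Adcyap1r1, the receptor of the neuropeptide PACAP, with 98.7 FPKM. Crhr1, the receptor of corticotropin-releasing hormone, followed Calcrl with 4.68 FPKM, and their ranges overlapped (3.69 to 5.55 FPKM for Calcrl, 3.10 to 6.75 FPKM for Crhr1). Pth1r, the parathyroid hormone receptor, had 3.17 FPKM and Gipr, the receptor of the gut hormone GIP, had 2.70 FPKM. These 5 genes were the receptors of the class with a mean of at least 1 FPKM.

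**Figure D2:**
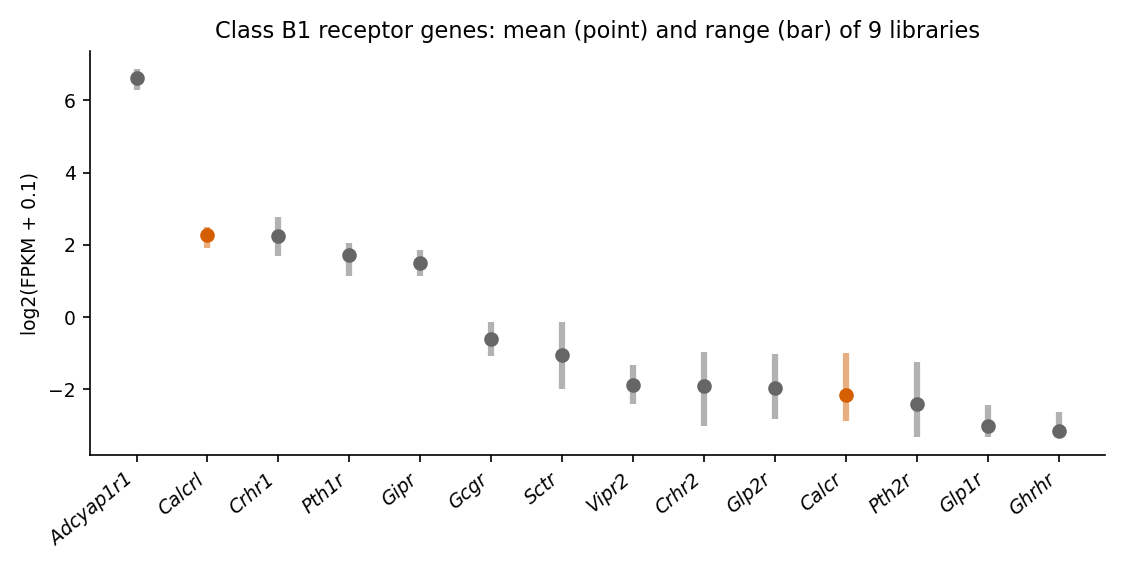
Level of the 14 class B1 receptor genes of the table, as log2(FPKM + 0.1). Points stand for the mean over the 9 libraries and bars for their range, with the members Calcrl and Calcr in orange. Calcrl lies second and overlaps with Crhr1, and Calcr lies 11th with a mean of 0.123 FPKM.

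The third question was which RAMP genes were expressed beside these receptor genes. Bulk RNA does not show whether a RAMP and Calcrl were expressed in the same cells, or how much of either protein was made. Ramp2, the partner that makes Calcrl an adrenomedullin receptor, was the member with the highest mean over the 9 libraries (ENSRNOG00000020415, chr10:89166890-89168965, plus strand). With NPCT the mean of Calcrl was higher (4.13 FPKM, against 3.92 FPKM for Ramp2). Ramp2 was listed at 5.20, 7.27 and 5.43 FPKM in the Control libraries, at 4.0, 3.82 and 3.93 FPKM with NPCT and at 6.82, 10.1 and 7.12 FPKM with PCT. The group means were 5.97 ± 1.13 (SD, n = 3), 3.92 ± 0.0938 and 8.03 ± 1.83 FPKM. The 3 NPCT libraries lay close together and below all 6 other libraries, whereas Control replicate 2 lay within the PCT range. The underlying fragments numbered 224 in Control (95% interval 196 to 255), 144 with NPCT (121 to 170) and 311 with PCT (277 to 348). These totals are not scaled for depth, and over all genes counting error did not cover the spread within a group. The NPCT libraries, with 46 to 51 fragments of Ramp2 each, lay closer together than counting error usually leaves. Their small SD may therefore understate the spread.

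Ramp2 was lower with NPCT than with PCT, with a log2 fold change of -0.99 (SE 0.17, 95% interval -1.39 to -0.60, limma with Benjamini-Hochberg adjustment, adjusted p = 0.00917). It was the only member called in this comparison, 1 of 6 tested, where 5.76% of all 15958 tested genes were called. Its log2 fold change was -0.997 without NPCT replicate 3 (adjusted p = 0.0279) and -1.07 without PCT replicate 3 (adjusted p = 0.00561). A gene was called at an adjusted p of at most 0.05 with a fold change above 1.5. Against Control, its log2 fold change was -0.58 with NPCT (-0.97 to -0.19, adjusted p = 0.0749), which is a fold of 1.49. With PCT it was 0.41 (0.02 to 0.81, adjusted p = 0.234), and neither of these comparisons passed the test. The call in the direct comparison thus rests on values on opposite sides of Control, neither of which was called alone, and both treatments were compared with the same 3 Control libraries.

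Ramp2 is a short gene of 840 bases, and libraries differed slightly in how the level depended on gene length. The slope of the log2 level per doubling of length ran from -0.03 to -0.02 in the NPCT libraries and was -0.03 in PCT replicate 3, against 0.00 to 0.03 in the other 5. A negative slope means higher levels of short genes. With the trend removed, the log2 fold change of Ramp2 was -1.07 for NPCT against PCT and -0.74 for NPCT against Control, the latter not called.

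Cell type markers differed between NPCT and PCT as well. The summed level of 13 endothelial markers was 15.7 to 17.3 FPKM in Control, 11.7 to 15.7 FPKM with NPCT and 12.4 to 15.5 FPKM with PCT. Of these markers 10 were under 0.5 FPKM, including Cdh5 (0.119 FPKM), Tek (0.177 FPKM) and Vwf (0.220 FPKM). Cldn5 and Sox17 had no fragment in any library, and most of the sum came from Slco1c1 (11.5 FPKM), a thyroid hormone transporter that astrocytes also carry. Egfl7 was next with 1.36 FPKM. Its log2 fold change was 0.73 for NPCT against Control and 0.75 for NPCT against PCT, opposite in sign to Ramp2. The other endothelial markers tested, Slco1c1 (-0.35 and -0.07) and Kdr (-0.09 and -0.41), had the same sign as Ramp2 in these comparisons. None of these markers was called. Pecam1 of the same list was not found by symbol. The mean level of Ramp2 was above that of each of the 13 other than Slco1c1.

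The sum of 10 astrocyte markers was 2493 to 2673 FPKM in Control, 2452 to 2712 FPKM with NPCT and 2150 to 2217 FPKM with PCT, and Aldoc, S100b, Aqp4, Slc1a2 and Aldh1l1 were called lower with PCT than in Control. Gfap, the highest marker of that list, had the opposite sign, with 776 ± 48.1 FPKM in Control and 919 ± 17.2 FPKM with PCT, and was not called (log2 fold change 0.25). Aldoc, S100b and Aldh1l1 were also called higher with NPCT than with PCT. The sum of 12 microglial markers was 33.0 to 46.4 FPKM in Control, 43.7 to 199 FPKM with NPCT, with the highest value in replicate 3, and 15.6 to 20.4 FPKM with PCT. Tyrobp, Aif1, Csf1r and Cx3cr1 were called lower with PCT than in Control, and those 4 with C1qa, C1qb, Tmem119 and Ptprc were called higher with NPCT than with PCT.

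Ramp2 in NPCT replicate 3, where microglial markers peaked, lay between the other NPCT libraries. The sum of 8 mural cell markers, led by Tagln and Notch3 with 89.4 and 15.6 FPKM, was 136 to 147 FPKM in Control, 86.8 to 137 FPKM with NPCT and 81.0 to 108 FPKM with PCT. Of these 8 markers 4 were under 0.5 FPKM, and most of the sum came from Tagln. The sum of 6 fibroblast markers, led by Col1a1 and Lum with 4.55 and 3.18 FPKM, was 11.5 to 14.9, 11.0 to 13.1 and 13.6 to 22.8 FPKM in the same groups. Col3a1 was called higher with PCT than in Control and lower with NPCT than with PCT. The oligodendrocyte lineage summed to 464 to 482, 505 to 542 and 421 to 439 FPKM, and neurons to 1676 to 1750, 1562 to 1671 and 1572 to 1775 FPKM, with no marker called in either list. Of the 13 neuronal markers, 8 were lower and 1 higher with NPCT than with PCT at an unadjusted p under 0.05 (limma), where 17.5% of all tested genes were lower in this way. Against Control 9 were lower and 1 higher with NPCT, where 14.9% of all tested genes were lower. The part of these cell types in the Ramp2 difference was not tested.

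Over the 9 libraries, the log2 level of Ramp2 was followed most closely by Supt16h (Pearson r = 0.975), Zfp330 (r = 0.974) and Zmym6 (r = 0.970). These correlations run over libraries that differ in depth and treatment, and carry no test.

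Ramp1, the partner that makes Calcrl the CGRP receptor, was low (ENSRNOG00000019926, chr9:98313632-98364205, plus strand). It was listed at 0.323, 0.664 and 0.256 FPKM in the Control libraries, at 0.885, 1.03 and 0.641 FPKM with NPCT and at 0.584, 0.783 and 0.494 FPKM with PCT. Control replicate 2 lay just above the lowest NPCT library, so that the groups overlapped. The fragments numbered 15 in Control (95% interval 8.40 to 24.7), 30 with NPCT (20.2 to 42.8) and 23 with PCT (14.6 to 34.5). Its log2 fold change for NPCT against Control was 0.95, but with an interval of 0.01 to 1.89 it did not pass the test (limma with Benjamini-Hochberg adjustment, adjusted p = 0.167). The log2 fold change was 0.55 for PCT against Control (adjusted p = 0.539) and 0.40 for NPCT against PCT (adjusted p = 0.536). At levels under 1 FPKM the test seldom calls even a 2-fold change, so that a missed threshold does not show that Ramp1 or Ramp3 was the same in all groups.

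Ramp3, the other adrenomedullin partner of Calcrl, was listed at 0.587, 0.879 and 0.622 FPKM in the Control libraries, at 0.527, 0.684 and 0.424 FPKM with NPCT and at 0.441, 0.460 and 0.560 FPKM with PCT (ENSRNOG00000053766, chr14:86922223-86939719, plus strand). The PCT libraries lay below all Control libraries and the NPCT libraries overlapped with both. With 8 to 16 fragments per library, the log2 fold changes were -0.30 for NPCT against Control, -0.43 for PCT against Control and 0.12 for NPCT against PCT (limma with Benjamini-Hochberg adjustment, adjusted p = 0.603, 0.588 and 0.846).

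**Figure D3:**
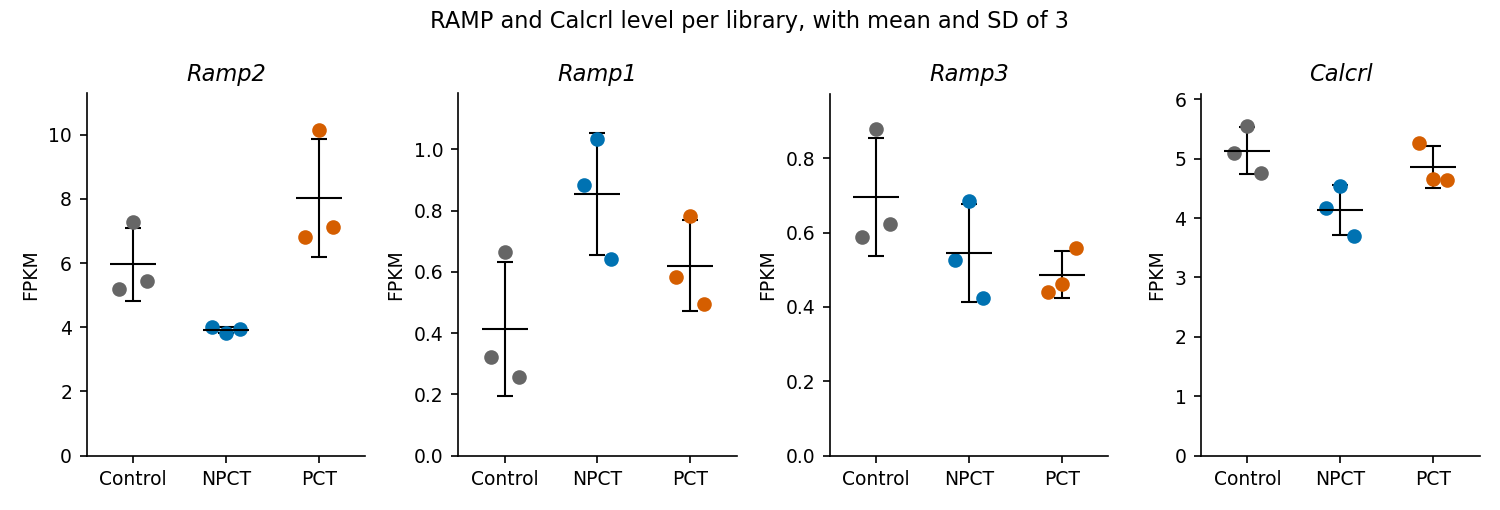
Level in FPKM of Ramp2, Ramp1, Ramp3 and Calcrl per library, with 1 point per library, the horizontal line at the group mean and the bar for the SD of 3 libraries. Vertical axes start at 0 and differ between panels. The NPCT points of Ramp2 (3.82 to 4.0 FPKM) lie below its other points, and those of Calcrl (3.69 to 4.54 FPKM) do so too.

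Because the RAMP decides the ligand of Calcrl, the composition of the summed RAMP level was also described, a quantity chosen after the values were seen. Ramp2 made up most of it in every library. Its share of the FPKM sum was 84.6% ± 1.85 (SD, n = 3) in Control, 73.8% ± 4.87 with NPCT and 87.7% ± 1.18 with PCT. Ramp1 made up 5.28%, 7.54% and 4.07% in the Control libraries, 16.4%, 18.7% and 12.8% with NPCT and 7.44%, 6.89% and 6.04% with PCT. The NPCT libraries had the 3 highest Ramp1 shares, and Control and PCT overlapped. Leaving out any single library kept the mean Ramp1 share with NPCT between 8.96 and 11.9 percentage points above Control and between 7.80 and 10.7 above PCT. Since the NPCT shares lay above all others, leaving out a library could not turn this direction. The Ramp1 level rests on 3 to 12 fragments per library, and its share also depends on the Ramp2 level. These shares are given as a description: an exact two-sided permutation test of 3 against 3 libraries cannot go below p = 0.1, and no other test of them was run.

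The Ramp3 share was 9.81% ± 0.187 in Control, 10.2% ± 1.98 with NPCT and 5.51% ± 1.40 with PCT. The summed RAMP level itself was 7.08 FPKM in Control, 5.31 FPKM with NPCT and 9.13 FPKM with PCT. The ratio of Ramp2 to Calcrl level was 1.16 ± 0.144 in Control, 0.955 ± 0.112 with NPCT and 1.67 ± 0.456 with PCT. These ratios ranged from 0.841 in NPCT replicate 2 to 2.18 in PCT replicate 2.

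**Figure D4:**
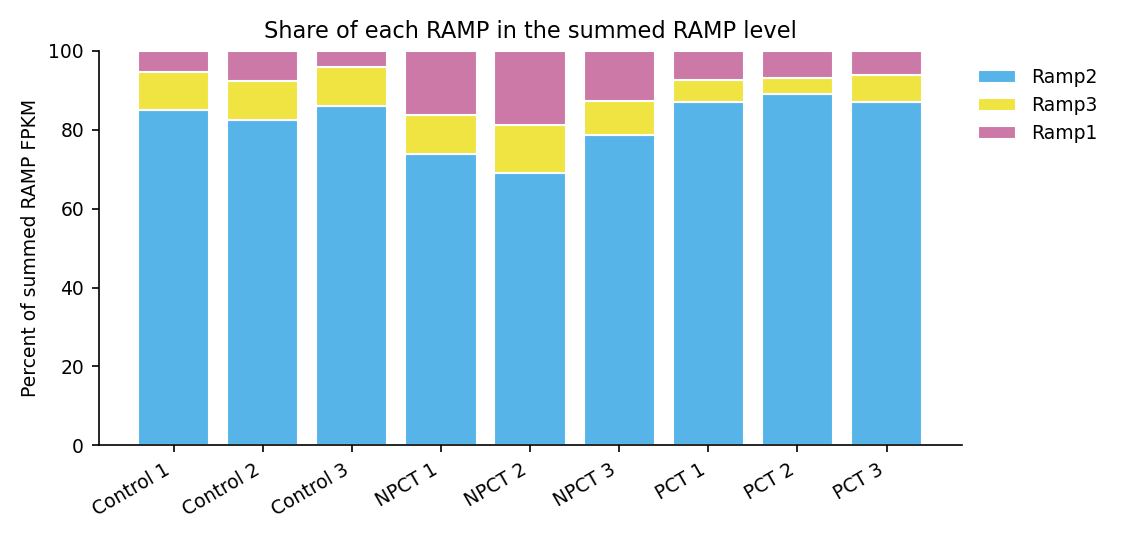
Share of Ramp1, Ramp2 and Ramp3 in the summed RAMP FPKM of each library, in percent, with 1 stacked bar per library. Ramp1 takes 12.8% to 18.7% in the 3 NPCT libraries and 4.07% to 7.54% in the 6 others.

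Across the members, few differences stood out from the background. In NPCT against Control, 0 of 6 tested members were called by limma, where 0.219% of all tested genes were called. Unadjusted p was under 0.05 for 3 members (Ramp2, Calcrl and Ramp1), where 29.3% of all tested genes reached it. The groups did not overlap for Ramp2 and Calcrl, where 40.3% of all tested genes had groups apart. In PCT against Control, 0 of 6 were called against 2.31% of all genes. Unadjusted p was under 0.05 for Ramp2 alone, against 18.9% of all genes, and Ramp3 alone had groups apart, against 24.9%.

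In NPCT against PCT, Ramp2 alone had an unadjusted p under 0.05, against 33.1% of all genes, and Ramp2, Calcrl and Calca had groups apart, against 33.4%. The median log2 fold change of the 6 members was 0.15, 0.21 and 0.22 in the 3 comparisons, beside 0.01, 0.00 and -0.01 over all genes tested. Without the filter on low levels, none of Adm2, Calcr and Calcb was called in any comparison. These genes had at most 20 fragments in a library, where the fit could hardly have called a change. That they were not called therefore does not show equal levels.

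**Figure D5:**
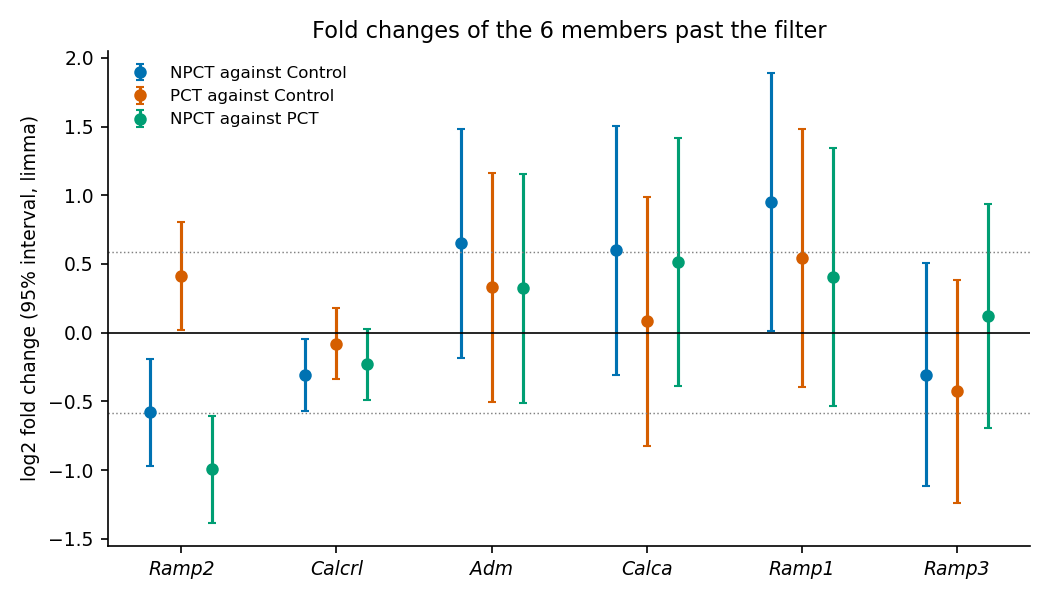
Log2 fold change of the 6 tested members in the 3 comparisons, with 95% intervals from limma as bars. Dotted lines mark a fold change of 1.5 in either direction. The interval of Ramp2 for NPCT against PCT (-1.39 to -0.60) lies beyond the dotted line, and the intervals of Calca, Adm and Ramp3 include 0 in all 3 comparisons.

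The last question was whether genes that process or degrade peptides or transmit the signal of these receptors moved with the treatments. All 50 listed genes were in the table and 46 were tested, and 0 were called in any of the 3 comparisons, where 0.219%, 2.31% and 5.76% of all genes tested were called. By limma, unadjusted p was under 0.05 for 16 in NPCT against Control, 7 in PCT against Control and 15 in NPCT against PCT, beside 29.3%, 18.9% and 33.1% of all genes tested. The median log2 fold changes were -0.02, -0.06 and -0.01.

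Among 16 genes of peptide processing and degradation, 12 were tested. The highest levels belonged to Cpe, the carboxypeptidase that trims prohormones (467 FPKM), Pam, the enzyme that amidates peptides such as calcitonin, CGRP and adrenomedullin (46.6 FPKM), Ide, the insulin-degrading enzyme, which also cleaves amylin (27.7 FPKM), and Pcsk2, a prohormone convertase (27.1 FPKM). Cpe was 453 ± 5.35 FPKM (SD, n = 3) in Control, 528 ± 43.6 with NPCT and 421 ± 3.84 with PCT. For NPCT against PCT its log2 difference of 0.32 had an adjusted p of 0.0157 (limma with Benjamini-Hochberg adjustment), but it did not reach the fold change of 1.5. Nor did Ece1, an endothelin-converting enzyme that also cleaves other peptides (log2 difference 0.47, adjusted p = 0.0106), or Furin, a proprotein convertase (0.42, adjusted p = 0.0249). With Cpe they were the 3 genes of the 12 with an adjusted p up to 0.05 in this comparison, which 16.3% of all tested genes had. Ece1 also had a log2 difference of -0.38 for PCT against Control (adjusted p = 0.0417). Dpp4, the peptidase that shortens PCT at its amino end, averaged 0.077 FPKM.

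All 23 genes of Gs and cAMP signalling, the main route of both receptors, were tested. The highest were the regulatory and catalytic subunits of protein kinase A Prkar1a (208 FPKM), Prkar1b (147 FPKM) and Prkacb (140 FPKM), followed by Gnas, the Gs alpha subunit (111 FPKM). Prkacb was 126 ± 1.74 FPKM with NPCT and 158 ± 11.6 FPKM with PCT. Its log2 difference of -0.32 had an adjusted p of 0.0133 (limma with Benjamini-Hochberg adjustment) at a fold change under 1.5. For NPCT against PCT 9 of the 23 genes had an adjusted p up to 0.05, all at a fold change under 1.5, where 16.3% of all tested genes reached it at any fold change. With NPCT 4 of them were higher (the cyclases Adcy2 and Adcy6, the phosphodiesterase Pde4a and the catalytic subunit Prkaca) and 5 lower (Crem, Pde4b, Pde4d, Prkacb and Prkar2b). The nearest to a call was Pde4a, with a log2 difference of 0.58 and an adjusted p of 0.0327 (limma with Benjamini-Hochberg adjustment), and Prkaca differed by 0.25, with the opposite sign to Prkacb. For PCT against Control, Adcy2 alone had an adjusted p up to 0.05 (log2 difference -0.54, adjusted p = 0.0343, limma with Benjamini-Hochberg adjustment), at a fold change of 1.46. Of all 15958 tested genes, 671 reached such an adjusted p in this comparison at any fold change. Gnas was 120 ± 3.77, 107 ± 0.472 and 107 ± 15.8 FPKM in Control, NPCT and PCT. This symbol had 2 entries, and the values are those of the entry with the higher mean.

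All 11 genes of Gq signalling and receptor desensitisation were tested. They were led by the alpha subunits Gnaq (117 FPKM) and Gna11 (46.2 FPKM), the receptor kinase Grk2 (52.6 FPKM) and the phospholipase Plcb1 (26.0 FPKM). Plcb1 was 29.9 ± 1.13 FPKM in Control, 22.2 ± 2.67 with NPCT and 25.9 ± 4.45 with PCT, and for NPCT against Control its log2 difference of -0.44 was not called (limma with Benjamini-Hochberg adjustment, adjusted p = 0.0727). Of the 13 other class B1 receptors listed, Vipr1 was not found by symbol, 5 were tested and 0 were called by limma in any comparison, where unadjusted p was under 0.05 for 0, 1 and 1 of them in NPCT against Control, PCT against Control and NPCT against PCT. Among all genes tested, 0.219%, 2.31% and 5.76% were called and 29.3%, 18.9% and 33.1% had such a p. Adcyap1r1 was 106 ± 1.31, 105 ± 17.4 and 85.5 ± 6.66 FPKM in the 3 groups, with a log2 difference of -0.31 for PCT against Control (adjusted p = 0.179).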

How the data were processed

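RNA was measured by poly(A) RNA-seq in 9 libraries, 3 for each of Control, NPCT and PCT. Per the processing notes of the submitters, reads were handled with HISAT2 2.0.5 and featureCounts 1.5.0-p3 on build Rnor_6.0. The authors converted counts to FPKM, and the deposited table holds these FPKM values per gene. The authors tested counts with DESeq2 1.20.0. Since the table holds FPKM, limma 3.58.1 in R 4.3.3 was used here.

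Fragments per gene were recovered as FPKM times length divided by the smallest step of the library, and 100% of values came out whole (tolerance 0.01 fragments). Genes with a mean of at least 0.5 FPKM were tested as log2(FPKM + 0.1), with 1 mean per group over all 9 libraries, a prior variance following intensity and Benjamini-Hochberg adjustment over 15958 genes. A fold change is on this scale, which understates changes of low genes. Calls needed a fold change above 1.5 beside an adjusted p of 0.05 or less. Tested on simulated data, the fit called nearly all 2-fold changes of genes at 5 FPKM or more, but few of those under 1 FPKM. Recovery from 1 to 5 FPKM, where Calcrl, Adm and Calca lie, is not given here. The simulation gave all genes and libraries the same spread beyond counting error, whereas the real libraries differed in this. The requirement at 5 FPKM or more was set after a requirement over all levels had failed in a simulated data set. With 19 alternatives, the fit was repeated under other pseudocounts, filters, normalizations and models and without each library.

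All 10 members are named. Of the pathway and class B1 lists, called genes and otherwise the 4 highest genes of each role are named, and of the marker lists the 2 highest and every called marker. Dpp4, Gfap beside the called markers, the genes of cAMP signalling and peptide processing below a fold change of 1.5 and the endothelial markers beyond these were chosen after their values were seen. The members and lists were chosen with earlier results of these data known. The labels number 3 replicates per group, while per the methods biological triplicates were pooled for RNA extraction, so that p-values measure only the spread between these libraries. Replicate numbers were not treated as pairs. Per the methods, no mitotic inhibitor was used. Sequences are not given here, and 1 microglial marker is not reported here.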

Additional observations from a re-analysis of the deposited data

Results flagged for a closer look

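The difference of Ramp2 between NPCT and PCT drew attention because the effects of the 2 peptides, each against the same Control libraries, differed by a test of the difference itself. The log2 fold change of NPCT against PCT was -0.99 (limma with Benjamini-Hochberg adjustment, adjusted p = 0.00917), with -0.58 for NPCT against Control and 0.41 for PCT against Control. All 3 NPCT libraries lay below all 3 PCT libraries.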

How the results depend on the processing

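Ramp2 in NPCT against PCT kept its direction and its call in all 19 alternatives, with log2 fold changes from -1.10 to -0.82 and adjusted p from 0.00561 to 0.0331 (limma with Benjamini-Hochberg adjustment). In NPCT against Control its adjusted p ran from 0.0340 in a fit of only those groups to 0.216, and it was never called. The numbers of members called were 0, 0 and 1 throughout. Of 336 values of the members under alternatives, 332 kept direction and side of the threshold and 4 turned. Ramp3 in NPCT against PCT turned to -0.16 with quantile normalization, and without single libraries ran from -0.030 to 0.26, below 0 without NPCT replicate 2. Without single libraries, Calca in PCT against Control ran from -0.31 (without Control replicate 1) to 0.52, and Adm in NPCT against PCT from -0.019 (without PCT replicate 1) to 0.67. In NPCT against Control, the uncalled values of Calca ran from 0.20 (without Control replicate 1) to 1.04 (without Control replicate 2) and those of Adm from 0.37 (without NPCT replicate 3) to 0.998 (without NPCT replicate 1). In PCT against Control, those of Ramp2 ran from 0.24 (without PCT replicate 2) to 0.56 (without Control replicate 2) and those of Adm from 0.084 (without PCT replicate 3) to 0.67 (without PCT replicate 1). Ramp1 without single libraries ran from 0.32 to 0.87 in PCT against Control (0.20 to 0.89 in other settings). In NPCT against PCT it ran from 0.27 to 0.57. Ramp3 ran likewise from -0.46 to -0.15 in NPCT against Control and from -0.52 to -0.27 in PCT against Control. Calcrl ran from -0.14 to -0.02 in PCT against Control and from -0.30 to -0.15 in NPCT against PCT. With a pseudocount of 1, Ramp1 in NPCT against Control was 0.40. None of these was called. The cause was not tested.

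Of the pathway genes, class B1 receptors included, 1 was called in NPCT against PCT with a pseudocount of 0.01, median ratio normalization, the length trend removed and limma-voom (Pde4a in each) and 1 with quantile normalization (Crem). Without single libraries it was 0 to 1, with Adcy2 called without PCT replicate 2 and Pde4a without PCT replicate 3. In PCT against Control it was 0 to 1, with Adcy2 called without PCT replicate 2.

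The background counts moved more. In NPCT against Control 35 genes were called, against 208 with a mean of at least 1 FPKM, 9 without a filter, 189 with quantile normalization, 579 in the fit of only these groups, 319 with the replicate block, 122 with the length trend removed, 390 with limma-voom and 0 to 562 without single libraries. The highest of these was without PCT replicate 3, and without PCT replicate 1 it was 220, whereas leaving out any of the 7 others gave 0 to 2. In PCT against Control 368 were called, and 172 to 398 without single libraries, with 172, 206 and 187 without Control replicates 1, 2 and 3. In NPCT against PCT 919 were called, against 454 in the fit of only these groups and 525 to 1623 without single libraries, with 570 without NPCT replicate 1, 528, 525 and 1623 without PCT replicates 1, 2 and 3. Same-numbered libraries did not deviate together across groups (correlations from -0.07 to 0.03), and with the replicate block Ramp2 in NPCT against PCT was still called. Depth limits Calcb, Calcr, Iapp, Ramp1, Ramp3 and Adm2, which rest on at most 20 fragments in a library.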
